A study of Caenorhabditis elegans with 2 samples.

Results

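MicroRNA genes of Caenorhabditis elegans were examined for nearby binding of LIN-1, as the peaks of chromatin immunoprecipitation followed by sequencing (ChIP-seq). The members are all nuclear genes that the Ensembl WBcel235 annotation classes as miRNA, which gave 261 of 46890 nuclear genes. A gene was counted when a peak summit, the position of highest signal within a peak, lay within 200 bp of it. As a second value it was counted when a summit lay within 2 kb upstream of it, on the strand of the gene. The animals were whole L4 larvae of strain RW12212, collected at 48 hours, after synchronisation by bleaching and starvation of L1 larvae. Their allele, st12212[lin-1::TY1::EGFP::3xFLAG] IV, is a tag inserted at lin-1 with CRISPR. There was 1 group with 2 biological replicates, both of this 1 allele. Both chromatin samples were sheared by sonication. No untagged or otherwise different group was analysed here, so there was no comparison between conditions. Because whole animals were used, strong binding in few cells and weak binding in many cannot be told apart.

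MicroRNAs are short RNAs cut from a hairpin precursor by Drosha and Dicer. Loaded into an Argonaute protein, they lower the output of messenger RNAs that pair with the seed, bases 2 to 8 of the mature miRNA. In C. elegans, lin-4 and the let-7 family time the larval stages, and several miRNAs act in vulval cell fate. LIN-1 belongs to the ETS family of transcription factors, which recognise a GGAA core, and it acts downstream of Ras signalling through the ERK kinase. A miRNA gene in this annotation is little more than its hairpin, with a median length of 95 bp; 4 genes are longer than 150 bp, up to let-7 with 1732 bp. The distances given here run from this annotated gene and, for most genes, not from the start of the primary transcript, which can lie far upstream.

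Of the 27 miRNA genes with a summit in either window, 9 belonged to 2 seed families in which several members had one, and the other 18 shared no seed with another such gene. Mature sequences are shown for these 2 families, for mir-80, which had the strongest peak, and for lin-4 and its paralogue. The sequences are from RefSeq on the WBcel235 assembly, written 5′ to 3′, with the seed in capitals. All 6 members of the mir-51 family carried the seed ACCCGUA. A summit lay within 2 kb upstream of 5 of them, on 3 peaks, where the share was 9.58% of all miRNA genes and 5.35% of all nuclear genes.
mir-51 5p: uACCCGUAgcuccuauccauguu
mir-52 5p: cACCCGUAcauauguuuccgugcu
mir-53 5p: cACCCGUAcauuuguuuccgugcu
mir-54 3p: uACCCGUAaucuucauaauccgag
mir-55 3p: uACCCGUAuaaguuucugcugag
mir-56 3p: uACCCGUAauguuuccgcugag
The 5 genes of the mir-64 family carried the seed AUGACAC, and 4 of them shared 1 upstream summit of the conservative list, while mir-63 had none there.
mir-229 5p: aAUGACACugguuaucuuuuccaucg
mir-64 5p: uAUGACACugaagcguuaccgaa
mir-66 5p: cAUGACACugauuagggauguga
mir-63 3p: uAUGACACugaagcgaguuggaaa
The seed GAGAUCA was found in 6 genes, of which mir-80 alone had a summit in either window. lin-4 and mir-237 share the seed CCCUGAG, and of this pair only lin-4 had a summit in either window.
mir-80 3p: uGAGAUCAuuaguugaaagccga
lin-4 5p: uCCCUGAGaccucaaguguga
mir-237 5p: uCCCUGAGaauucucgaacagcu

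The DNA under the summits is shown for the miRNA genes whose peaks are described in most detail. Each window holds the summit base and 50 bp to each side of it from the WBcel235 (ce11) reference, written on the strand of the miRNA. In the first 4, capitals mark GAGAG or its reverse complement CTCTC; the mir-51 window holds neither word.
mir-80, chrIII:8865538-8865638, minus strand: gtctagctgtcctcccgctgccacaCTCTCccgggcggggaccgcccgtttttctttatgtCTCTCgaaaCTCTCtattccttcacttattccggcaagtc
mir-54, chrX:13145270-13145370, minus strand: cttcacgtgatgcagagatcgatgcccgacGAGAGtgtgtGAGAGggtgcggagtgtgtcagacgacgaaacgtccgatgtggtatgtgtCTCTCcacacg
mir-34, chrX:2971644-2971744, minus strand: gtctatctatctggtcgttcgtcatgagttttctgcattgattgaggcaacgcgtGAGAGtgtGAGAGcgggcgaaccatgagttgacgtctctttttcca
mir-51, chrIV:11026159-11026259, minus strand: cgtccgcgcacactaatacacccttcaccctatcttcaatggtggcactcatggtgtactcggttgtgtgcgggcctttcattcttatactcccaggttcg
In the other 3, capitals mark the ETS core GGAA or its reverse complement TTCC.
mir-53, chrIV:11027749-11027849, minus strand: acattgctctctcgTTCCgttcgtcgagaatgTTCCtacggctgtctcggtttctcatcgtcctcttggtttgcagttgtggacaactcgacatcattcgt
lin-4, chrII:5901825-5901925, plus strand: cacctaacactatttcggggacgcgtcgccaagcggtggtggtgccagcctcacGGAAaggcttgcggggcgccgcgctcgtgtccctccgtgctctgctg
mir-229, chrIII:2171988-2172088, plus strand: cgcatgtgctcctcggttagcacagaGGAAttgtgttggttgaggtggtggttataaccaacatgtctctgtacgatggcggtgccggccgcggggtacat

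The lists were deposited without read totals, so the read depth is unknown, and the numbers of peaks do not measure it. The conservative list, made by the authors from both replicates, held 2267 peaks, of which 2243 lay on nuclear chromosomes. Replicate 1 had 1079 peaks in its own thresholded list and replicate 2 had 1348. The threshold is an irreproducible discovery rate (IDR) of 0.01, which measures how alike a peak ranks in a pair of lists. Each peak carries a signal, the authors' own value on a scale that is not stated. Over all nuclear conservative peaks its median was 73.8 and its highest value 516.

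Summits lay within 200 bp of 7 of the 261 miRNA genes, 2.68% (exact 95% interval 1.08 to 5.45%). Over all nuclear genes the share was 4.62%, and over protein-coding genes it was 6.08%. This window includes the gene itself, so it is far shorter for a miRNA than for a typical protein-coding gene. Per length, miRNA genes with 200 bp to each side held 59.3 summits per Mb and protein-coding genes 19.2, though the former rests on 7 summits in 0.118 Mb. Within 2 kb upstream the order was the other way round. There, 25 miRNA genes had a summit, 9.58% (6.3 to 13.8%), against 5.35% of all nuclear genes and 7.27% of protein-coding genes. With the upstream window ended at the next protein-coding gene, which leaves no window for a miRNA inside a host, the count fell to 8 genes, 3.07% (1.33 to 5.95%). Under that rule the share was 3.52% of all nuclear genes and 5.63% of protein-coding genes. The miRNA genes inside a host stayed among the 261 but could not be counted, so the low miRNA share follows in part from the rule. Of the 152 miRNA genes between protein-coding genes, 8 had an upstream summit in the full window, 5.26%. Either window counted 27 genes and both windows 5, which left 234 genes, 89.7%, with no summit in either. Genes of other small RNAs had larger shares within 200 bp: 282 of 612 tRNA genes (46.1%), 78 of 346 snoRNA genes (22.5%) and 23 of 129 snRNA genes (17.8%). The piRNA genes had a smaller one, with 32 of 15363 (0.208%). Within 2 kb upstream the shares were 26.3% for tRNA, 26.6% for snoRNA and 16.3% for snRNA genes, each above the miRNA share of 9.58%. The piRNA genes stood at 1.69% there, which lowers the share over all nuclear genes.

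Neighbouring miRNA genes share peaks, so the genes are not independent counts. Same-strand miRNA genes with gaps of up to 2 kb formed 222 loci, and 18 of these, 8.11%, had an upstream summit. The 27 genes rested on 23 peaks. Per length of sequence there were 45.8 summits per Mb in the 2 kb upstream of miRNA genes, 35.3 upstream of protein-coding genes and 22.4 over the nuclear chromosomes. The 2 kb downstream of miRNA genes held summits for 19 genes, 7.28% (4.44 to 11.1%), so the intervals of the upstream and downstream shares overlapped. Both shares come from the same genes, so these separate intervals do not measure the difference between them. Of protein-coding genes 4.94% had a downstream summit.

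The 2 replicates gave different numbers of miRNA genes. Replicate 2's own list placed a summit within 2 kb upstream of 24 miRNA genes, 9.2%, against 3.46% of all nuclear genes. Replicate 1's own list did so for 14 miRNA genes, 5.36%, against 2.81%. Of the 25 genes of the conservative list, replicate 2's list held 19 and replicate 1's list 13. Kept to conservative peaks that both replicates' own lists held, the count was 12 genes, 4.6%, against 1.89%. The other list of the series, also made from both replicates, counted 30 genes, 11.5%, against 5.41%, and included all 25.

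**Figure D1:**
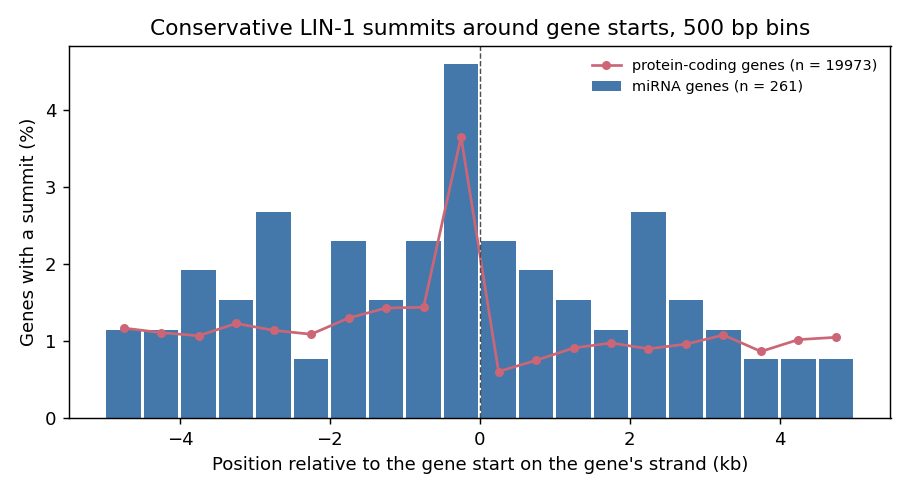
Share of genes with a conservative summit in each 500 bp bin from 5 kb upstream to 5 kb downstream of the gene start, on the strand of the gene, for 261 miRNA genes (bars) and 19973 protein-coding genes (line). Both were highest in the 500 bp just upstream, at 4.6% and 3.65%.

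Within the upstream window the summits were densest next to the gene. The plot of summits by distance shows 12 miRNA genes with a summit in the last 500 bp before the gene, 4.6%, against 3.65% of protein-coding genes. In the other upstream bins, out to 5 kb, the miRNA share lay between 0.766 and 2.68%. In the first 500 bp from the gene start onward, 6 miRNA genes had a summit, 2.3%, where the share of protein-coding genes was 0.606%. A typical hairpin is shorter than that bin, and of all 261 miRNA genes only mir-5549 had a summit inside the gene itself.

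The share with an upstream summit differed between kinds of miRNA gene, with intervals that overlapped between the host classes. Of the 68 miRNA genes inside an intron of a protein-coding gene on the same strand, 12 had one, 17.6% (9.47 to 28.8%), on 10 peaks. Of the 31 in an intron of a gene on the opposite strand, 4 had one, 12.9% (3.63 to 29.8%), on 2 peaks. Of the 152 between protein-coding genes, 8 had one, 5.26% (2.3 to 10.1%). By name, lin-4, let-7, lsy-6 and the miRNAs numbered up to 400 had 18 of 117, 15.4% (9.38 to 23.2%), on 14 peaks. Those with numbers over 400 had 6 of 140, 4.29% (1.59 to 9.09%), on 6 peaks. The intervals by name did not overlap, but they treat genes that share a peak as independent, and no test between the groups was run. The cut at 400 was not among the planned results. Of all nuclear genes 5.35% had an upstream summit. On chromosome III 6 of 27 genes had an upstream summit, 22.2% (8.62 to 42.3%), from 3 peaks. Among them, mir-229, mir-64, mir-65 and mir-66 shared 1 peak. On IV it was 2 of 50, 4% (0.488 to 13.7%), and on V 1 of 28, 3.57% (0.0904 to 18.3%). The intervals of III, IV and V overlapped. The shares were 12.1% on I, 8.16% on II and 10.8% on X. The share over all nuclear genes is not given here by chromosome.

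**Figure D2:**
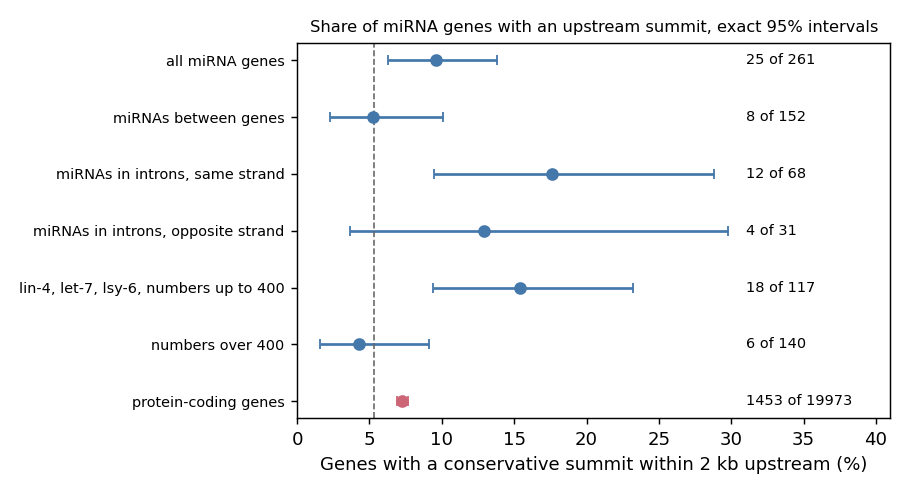
Percentage of genes with a conservative summit within 2 kb upstream (horizontal axis), as points with exact 95% binomial intervals, and counts at the right. The dashed line is the 5.35% of all nuclear genes; miRNAs in same-strand introns stood at 17.6% and those between genes at 5.26%.

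The strongest peak near a miRNA gene belonged to mir-80, a member of the family of mir-58, one of the most abundant miRNAs of the worm. Its summit lay 221 bp upstream of the hairpin (chrIII:8865270-8865367, minus strand), between protein-coding genes. The peak, chrIII:8865565-8865650, was 86 bp wide, and its signal of 159 was above that of 95.5% of the 2243 nuclear peaks. Replicate 1 gave it 66.4 and replicate 2 gave it 94.0, and both own lists held it. No protein-coding promoter window lay at the summit. Of the listed relatives, mir-81 and mir-82 share its seed, whereas that of mir-58.1 is GAGAUCG, and none of these 3 had a summit in either window. The nearest to mir-58.1 was 5.37 kb away. mir-82 had a ranked peak 134 bp upstream, with a signal of 45.1 and an IDR of 0.0347, which missed the threshold.

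The mir-51 family, whose members act together in embryonic development, had the most genes with peaks of the families examined. mir-51 and mir-53 are neighbours on chromosome IV, each with its own peak. The summit of the mir-51 peak lay 97 bp upstream of the hairpin, within the non-coding RNA gene F36H1.17. Its signal was 100.8, and replicate 1 (47.1) and replicate 2 (48.2) gave nearly the same value. Both own lists held it. The mir-53 summit lay 108 bp upstream of its hairpin and 1687 bp upstream of that of mir-51. That peak, with a signal of 86.7, had replicate values further apart, 28.4 for replicate 1 and 62.4 for replicate 2. Only replicate 2's own list held it.

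The other family members with peaks, mir-54, mir-55 and mir-56, form a cluster on chromosome X within an intron of F09A5.3, on the opposite strand. A single summit lay 226 bp upstream of mir-54, 396 bp upstream of mir-55 and 533 bp upstream of mir-56. Its signal was 107. The replicates gave 57.0 and 55.8, and both own lists held it. A second peak lay at the other end of the cluster, with its summit 83 bp beyond mir-56. Its signal was 84.1. The replicates gave 35.7 and 46.2, and neither own list held it. The second summit was also 222 bp upstream of F09A5.15, a miRNA gene on the plus strand. The sixth member, mir-52, lay apart on chromosome IV, 20.1 kb from its nearest summit. It had a ranked peak 632 bp upstream with a signal of 42.5 and an IDR of 0.0414, and the other list of the series held a summit upstream of it.

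The 4 genes mir-229, mir-64, mir-65 and mir-66 lie in a row in an intron of gcn-1, on its strand. The gene gcn-1 is the worm homologue of a translation regulator of the Gcn2 pathway in yeast. Their shared summit lay 414 bp upstream of mir-229 and 1070 bp upstream of mir-66. The peak, chrIII:2171890-2172185, had a signal of 73.4, close to the median of all peaks. Replicate 1 had 27.4 and replicate 2 had 48.7, and only replicate 2's own list held it. mir-63, the fifth member, had a ranked peak 1471 bp upstream with a signal of 81.0. The lists paired for the conservative ranking gave it 20.5 and 57.8, and its IDR of 0.0119 lay just past the threshold. The other list of the series and replicate 2's own list each held a summit upstream of it.

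**Figure D3:**
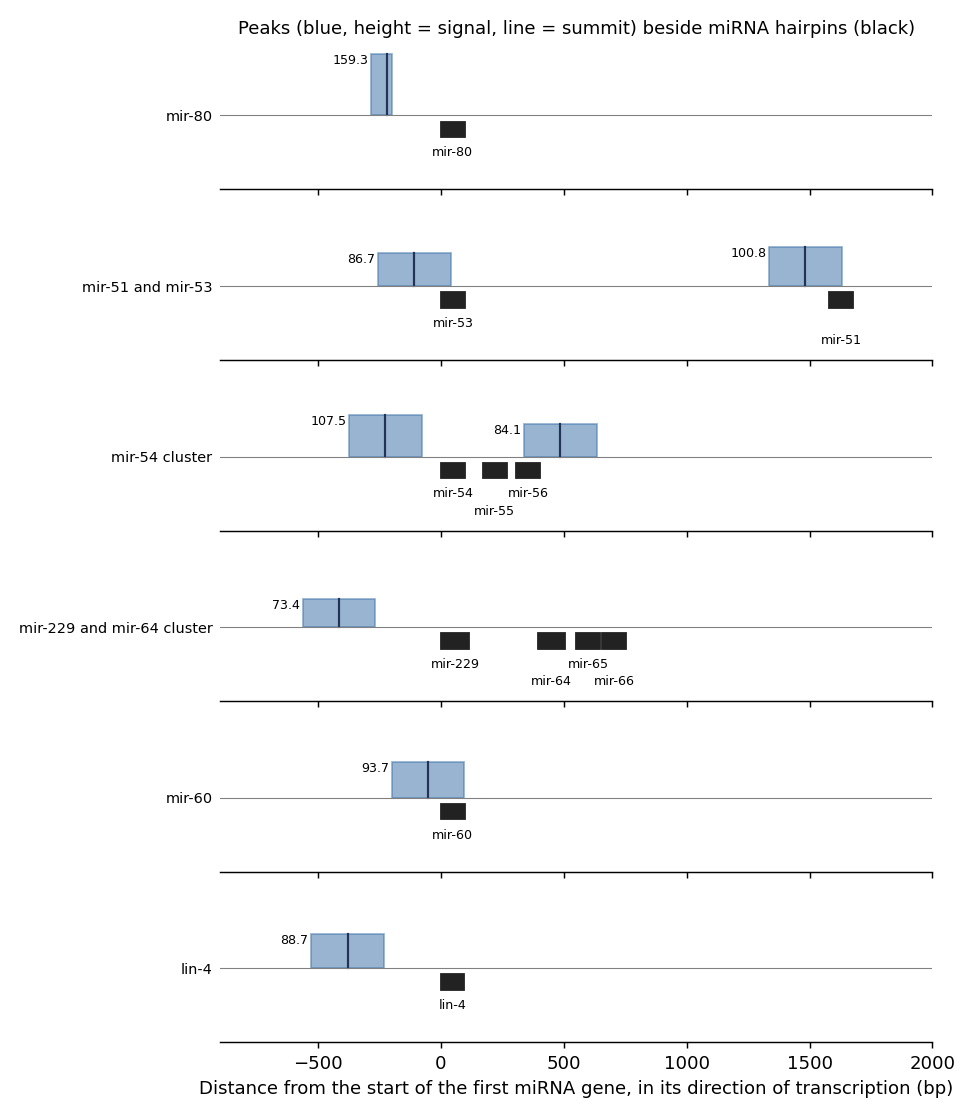
Conservative peaks (blue, height proportional to the signal printed beside them, vertical line at the summit) and miRNA hairpins (black) at 6 loci, drawn to scale in bp from the start of the first miRNA gene in its direction of transcription. A summit lay upstream of the first hairpin in each row, though the peaks at mir-53 and mir-60 also overlapped that hairpin. A second peak overlapped mir-51 in its row, and another overlapped mir-56.

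lin-4, the first miRNA gene found and a timer of the first larval stages, had 1 summit, 379 bp upstream of its hairpin (chrII:5902254-5902347, plus strand). It lay within an intron of F59G1.4, on the strand of lin-4, and within the non-coding RNA gene F59G1.12. The peak, chrII:5901727-5902022, reached 88.7. Here replicate 1 was the higher, at 50.01, and replicate 2 gave 39.2. Only replicate 1's own list held it. Its summit window had the highest G and C content of the 23, at 67.3%. Its paralogue mir-237 had its nearest summit 2.01 kb away, downstream. The strongest ranked peak upstream of mir-237 had a signal of 40.9 and an IDR of 0.0579.

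No conservative summit lay in either window of any of the 7 let-7 family genes. Over all miRNA genes 10.3% had one, so a count of 0 or 1 in a list this small lies near that share. let-7, which times the change to the adult stage, was 8.39 kb from its nearest summit, and its strongest ranked upstream peak had an IDR of 0.109. Its relatives mir-48, mir-241 and mir-84 were 9.8, 11.6 and 34.2 kb from theirs. Of the 7 vulval and heterochronic miRNAs listed, lin-4 was the only one with a summit in either window. Of the others, mir-61, which acts against vav-1 in vulval cells, was 5.55 kb from its nearest summit. None of the 8 genes of the mir-35 family, needed in the embryo, and none of the 4 of the mir-44 family had a summit in either window. Distances for the mir-35 family ran from 2.59 to 14.9 kb. The genes mir-35 to mir-41 had the same nearest summit, with a signal of 114. It lay upstream of them, at 2.59 to 3.29 kb, beyond the 2 kb window.

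Of the 16 individually listed miRNAs, 4 had an upstream summit, lin-4, mir-51, mir-34 and mir-71, where the share was 9.58% of all miRNA genes and 5.35% of all nuclear genes. mir-34, a conserved miRNA of the DNA damage response, had its summit 1846 bp upstream, with a signal of 94.96. Its replicate values were 37.7 and 57.1, and only replicate 2's own list held the peak. mir-71, which promotes long life and survival of starved L1 larvae, had its summit 1381 bp upstream, in an intron of ppfr-1 on its own strand. The signal was 77.2, with 34.2 and 40.4 in the replicates, and both own lists held it. Those without a summit in either window included lsy-6 of the taste neuron pair (46.6 kb away), the muscle miRNA mir-1 (5.89 kb), the neuronal mir-124 (41.7 kb) and the glial mir-228 (29.2 kb). The median distance to the nearest summit was 14.9 kb over all miRNA genes and 18.4 kb over protein-coding genes.

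Among the remaining genes, mir-60 had a summit 53 bp upstream, between protein-coding genes, with a signal of 93.7. Its replicates were close, at 47.0 and 49.9, and both own lists held the peak. mir-2214 had a summit 35 bp upstream in an intron of B0361.11, with a signal of 111 and replicate values of 49.2 and 58.0, also in both lists. mir-235, which holds neural progenitors quiescent in starved L1 larvae, had summits 1176 and 1834 bp upstream. Each of these was within 200 bp of a tRNA gene. Their signals were 78.7 and 110.0, and both own lists held the stronger one. The summit 183 bp from mir-1829.3, on its downstream side, was also beside a tRNA gene, in an intron of piki-1, with a signal of 74.8. Only replicate 1's own list held it. The neighbours mir-2212 and mir-1819 shared a summit near the far edge of the window, 1827 and 1953 bp upstream. Its signal was 64.2, with replicate values of 40.6 and 26.8, and neither own list held it.

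Several of the peaks lay at promoters of protein-coding genes, taken as 1000 bp upstream to 200 bp downstream of a start. That was so for 6 of the 23 peaks, 26.1%, against 40.5% of all nuclear peaks. The summit beside mir-5549 lay 171 bp upstream of rfc-4, a subunit of the DNA replication clamp loader, and was also in the promoter window of eef-1A.1, a translation elongation factor. Its signal was 96.2, with replicate values of 43.9 and 55.6, and both own lists held it. The summit 924 bp upstream of mir-5592.1 was 5 bp upstream of the start of cest-13, with a signal of 69.4, and neither own list held it. Neither a promoter window nor a tRNA, snoRNA, snRNA or rRNA gene was found at 14 of the 23 summits, 60.9%, against 46.9% of all nuclear ones. Of the 23 summits, 9 lay inside a protein-coding gene, 39.1%, against 37.7%.

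A miRNA in an intron or exon on the strand of its host can be transcribed from the host promoter. Of 76 such genes, 7 had a summit in the host promoter window, 9.21% (3.78 to 18.1%), against 5.25% of all protein-coding genes. For 4 of them the summit was also within 2 kb upstream of the miRNA. mir-354, in an exon of the ribosomal protein gene rps-20, had the strongest, with a signal of 149.9 and replicate values of 78.3 and 68.8, 229 bp upstream of the host. That summit was nearer still to ekl-4, at 168 bp. mir-2216 in gmps-1, a GMP synthase gene, followed with 119, and its summit was shared with the promoter of cap-2. mir-70 in pmp-5, a peroxisomal transporter gene, had 78.8, and mir-353 in the ribosomal protein gene rpl-24 had 63.3. The other 3 summits were farther from the miRNA, at 16.1 kb for mir-8192 in flcn-1, 2.89 kb for mir-4813 in idhg-1 and 2.04 kb for mir-1020 in T16G12.1. Neither replicate's own list held any of those 3, nor the peak of mir-353. Both own lists held the peaks of mir-354 and mir-2216, and only replicate 2's list that of mir-70.

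**Figure D4:**
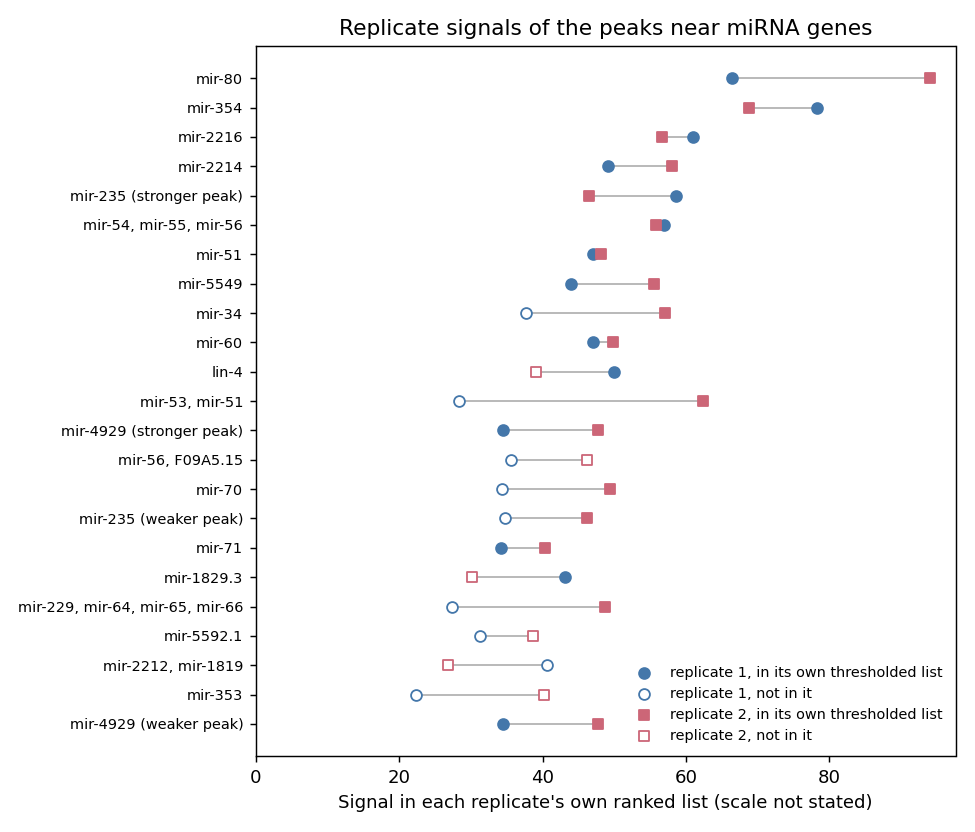
Signal of replicate 1 (circles) and replicate 2 (squares) for the 23 peaks with a summit in either miRNA window, ordered by conservative signal, with filled symbols where the replicate's own thresholded list held the peak. Replicate 2 was higher in 16 peaks, and the widest gap was at mir-53.

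The 23 peaks ranged from weak to strong. Their signals ran from 18.02 to 159, with a median of 86.7 against 73.8 over all nuclear peaks, and quartiles of 76.0 and 104 against 60.6 and 96.1. The nuclear values include 129 peaks that repeat the paired-list signals of a stronger peak, against 0 among the 23. Both own lists held 12 of the 23, replicate 2's list alone 5, replicate 1's alone 2, and neither 4. Of all 2243 nuclear peaks 677 were in both and 792 in neither. The ratio of the replicate 2 to the replicate 1 signal had a median of 1.24, ranging from 0.66 to 2.2. Over all nuclear peaks that had both values the median was 1.14. The plot of replicate signals shows that replicate 2 was higher in 16 peaks and replicate 1 in 7. The weakest, 18.02, was the second of 2 overlapping peaks upstream of mir-4929, and it has the same replicate values as its stronger neighbour of 85.1.

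The peaks just inside the IDR threshold were this second peak of mir-4929, at 0.0091, and that of mir-353, at 0.00783. Just outside it, 12 miRNA genes with no summit in either window had an upstream ranked peak with an IDR of up to 0.05. mir-90 came first at 0.0106, then mir-63 at 0.0119 and mir-253 at 0.0128. Without any threshold, 158 miRNA genes, 60.5%, had a ranked summit within 2 kb upstream, against 41.8% of all nuclear genes. That left 103 genes with no ranked upstream summit.

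The ETS core was no more frequent at these summits than beside them. GGAA, read on either strand of these windows, was present at 13 of the 23 summits, 56.5% (34.5 to 76.8%). The share was 33.3% in replicate 1's own list, and 30.4% in the conservative list with 25 bp to each side of the summit. With the full windows the core was also present in 26 of 46 windows of the same size 500 bp to each side, again 56.5%. Over all nuclear peaks the shares were 58.2% at the summit and 63.2% beside it. The longer forms GGAAG or CGGAA, each of which contains the core, were at 7 of 23 summits, 30.4%, with 30.4% beside them. CCGGAA was at 1 of 23, against 3.39% of all nuclear summits. Of the windows shown, those of mir-53 and mir-80 hold the core at 2 places each. Those of lin-4, mir-229 and mir-34 hold it at 1 each, and those of mir-51 and mir-54 at none.

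The summit windows were richer in G and C than their surroundings, with a median of 49.5% against 35.1% in the flanks. For all nuclear peaks these medians were 45.5 and 34.7%. The word GAGAG, chosen after the sequences were seen, was on either strand at 9 of the 23 summits, 39.1% (19.7 to 61.5%), and in 4 of 46 flank windows, 8.7% (2.42 to 20.8%). All nuclear peaks showed the same order, with 36% and 13.7%. It occurred 3 times in the window of mir-80, 3 times in that of mir-54 and 2 times each in those of mir-34 and mir-53.

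The protein-coding genes of the miRNA pathway were examined by their promoter windows. Of 18 listed genes of miRNA biogenesis and function, 17 were found by symbol and 6 had a promoter summit, against 5.25% of all protein-coding genes. The strongest was at nhl-2, a TRIM-NHL cofactor of the miRNA complex. Its summit lay 851 bp upstream and its signal was 269. Replicate 1 gave 122 and replicate 2 gave 149. The same summit was closer to the start of tag-340. vig-1, a component of the silencing complex, had a signal of 117 (60.8 and 52.4), and cgh-1, a DDX6-type RNA helicase, had 90.9 (48.5 and 39.8). Both own lists held the peaks of nhl-2, vig-1 and cgh-1.

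At xrn-2, an exonuclease that degrades mature miRNAs, the summit was 16 bp upstream of the start, with a signal of 93.3. Its replicates were 69.0 and 26.9, and only replicate 1's own list held it. The other promoter summits belonged to alg-5, an Argonaute, with 53.8 (35.6 and 29.9), and ain-1, a GW182 protein, with 46.1 (68.7 and 53.2). Both own lists held the ain-1 peak, and only replicate 2's list that of alg-5. The alg-5 summit was nearer to the histone genes his-67 and his-68. The core enzymes and Argonautes drsh-1, pash-1, dcr-1, alg-1 and alg-2 had no promoter summit. Nor did the other listed genes ain-2, paxt-1, tsn-1, lin-28, pup-2 and pab-1. Of all protein-coding genes 5.25% had one, so its absence from a few named genes lies near that share. The summit nearest to the start of drsh-1 lay 2983 bp upstream of it.

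Of the 10 genes listed here as miRNA targets, lin-66 alone had a promoter summit, with a signal of 88.8. Whether lin-66 is a miRNA target was not checked here. A count of 1 in 10 lies near the 5.25% of all protein-coding genes. Inside the gene, summits were found for 4 of the targets, lin-14, lin-28, daf-12 and vav-1, and for 2 of the biogenesis genes, ain-2 and lin-28. Over all protein-coding genes 3.38% had a summit inside. lin-14 and lin-28 are targets of lin-4, and daf-12 is a target of the let-7 family. These genes differ in length, and a longer gene offers more room for a summit.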

How the data were processed

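Peak lists on ce11, the same assembly as WBcel235, were deposited for each replicate and for the series. They hold, per the labels and the file layout, a signal per peak deposited by the authors on an unstated scale and, in the ranked lists, the −log10 of the IDR, also deposited by the authors. Aligner and peak caller were not given in the sources used here. Read depth is unknown. The ranked lists also hold, as scores deposited by the authors, the signals of the paired lists. The control experiment named in the labels was not used here. The description names an anti-GFP antibody and the antibody field lin-1, which was not resolved.

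The thresholded conservative list was the main list. Genes came from Ensembl 115, symbols and mature sequences from RefSeq (261 of 261 genes matched; 260 have a mature sequence). The replicate signal is the highest among peaks of that replicate's own ranked list overlapping the conservative peak by 1 bp or more. Shares have exact 95% binomial intervals, which cover counting error over genes only; genes that share a peak are not independent. With 1 group there was no test between conditions, and no test of a gene list was run. The code for the distance windows was checked on simulated summits planted at known distances, which is no test against chance. Members and lists were chosen with earlier results of these data known. The genes named are all with a summit in either window, 16 listed miRNAs and the listed families and pathway genes; mir-90, mir-253 and the hosts' genes were named after their values were seen, as were genes next to a summit. Alternatives were other lists, windows, motifs and exclusions. Python 3.11.15, numpy 2.4.6, scipy 1.17.1 and matplotlib 3.10.9 were used. Coordinates are 1-based. A mature sequence of the mir-64 family is not reported here.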

Additional observations from a re-analysis of the deposited data

How the results depend on the processing

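The 2 kb upstream count of 25 miRNA genes ranged from 14 to 24 with 1 replicate left out, and came to 12 with peaks of both own lists, 43 with 5 kb, and 8 with the window ended at the next protein-coding gene. It stayed within 1.5 times under the other alternatives run: 30 with the series list, 17 at an IDR of 0.001 or less, 17 with 1 kb, 27 for any peak overlap, 20 without promoter summits and 24 without summits near small RNA genes. Chosen after seeing the data, hairpins in place of genes gave 25, and loci in place of genes 18. The count of 7 within 200 bp ranged from 7 to 8 with 1 replicate left out. It came to 11 with the series list, 4 with peaks of both own lists, 16 with 500 bp, 1 with 0 bp and 13 for any peak overlap. The GGAA share of 56.5% ranged from 33.3 to 48.0% with 1 replicate left out, and was 33.3% with peaks of both own lists, 30.4% with 25 bp and 82.6% with 100 bp to each side of the summit and 30.4% for GGAAG or CGGAA. Longer windows raise and shorter windows lower these values by construction, and the cause of the other changes was not tested. No paired comparison between conditions was possible because the study has 1 group. Depth is unknown, so a gene without a summit may lie below what these lists detect.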
